A study of Mus musculus with 6 samples.

Results

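Inward rectifier (Kir) and ATP-sensitive (KATP) potassium channel genes were followed in hearts of old and young mice. The 8 genes, Kcnj2, Kcnj12, Kcnj3, Kcnj5, Kcnj8, Kcnj11, Abcc8 and Abcc9, were chosen by name as channel subunits, by a rule that uses no measured value but was set with earlier results of these data known. All 8 are among the 18005 genes listed in the deposited tables and among the 12893 genes tested. RNA was sequenced from samples labelled as heart from 3 old and 3 young mice, numbered in the titles as separate animals. Both groups are labelled wild type and untreated, and ages in months, strain, sex and heart region are not given. By its title the series concerns pathological hypertrophy of the ageing heart.

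Kir channels are tetramers that pass potassium more readily into the cell than out of it. In heart muscle cells the Kir2 channels carry the current that holds the resting potential and shapes the last phase of the action potential. Kir3 channels, also called GIRK, open when a muscarinic or adenosine receptor frees G protein beta-gamma subunits, and are best known for slowing the sinoatrial node and shortening the atrial action potential. KATP channels join pore subunits of the Kir6 kind to sulfonylurea receptors (SUR), close when ATP binds the pore, and open when the energy charge of the cell falls.

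The pore subunits share the selectivity filter, the stretch of the pore loop that sorts potassium from sodium. The 45 bases around it are shown for 4 of the pore genes, at least 1 from each of the Kir2, GIRK and Kir6 kinds, because they show how far these kinds differ in their most shared stretch. They were read from the GENCODE M21 transcripts of the GRCm38 build, 5′ to 3′ on the coding strand. Capitals mark the 3 codons of the filter triplet, which reads glycine, tyrosine, glycine in the first 3 genes and glycine, phenylalanine, glycine in Kcnj8.
Kcnj2: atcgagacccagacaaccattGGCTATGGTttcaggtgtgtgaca
Kcnj3: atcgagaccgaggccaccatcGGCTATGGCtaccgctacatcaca
Kcnj5: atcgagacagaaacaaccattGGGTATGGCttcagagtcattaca
Kcnj8: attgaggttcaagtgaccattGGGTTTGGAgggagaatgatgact
Kcnj3 and Kcnj5, the GIRK pair, were identical at 33 of the 45 bases, and Kcnj2 matched Kcnj3 at 33 and Kcnj5 at 34. Kcnj8 matched Kcnj5 at 28 bases, Kcnj2 at 25 and Kcnj3 at 23.

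Counts for the 8 genes lay between 109 and 5883 per library, in libraries of 11295280 to 12514005 counts. Levels are given as CPM, which puts the counts of every library on one common total by TMM factors, where groups are compared, and as the deposited FPKM, which also divides by gene length, where genes are compared. Genes were tested with edgeR's quasi-likelihood F test, and changes are log2 of old over young with their standard error. A gene was called at a Benjamini-Hochberg adjusted p under 0.05 over all 12893 genes. Of all genes, 11.4% were called higher in old hearts, 10.6% lower and 22% either way. Calls thus split 51.7% higher against the rest, a share that was 40.2% under upper-quartile scaling, 32.7% under scaling by library size alone and 35.1% on log2(FPKM + 1). Groups did not overlap for 39.9% of all genes.

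Among the channel genes, Kcnj2 fell and Kcnj3 rose in old hearts, and Kcnj5 fell slightly. The count was 1 gene called higher, 2 called lower and 5 not called of 8, or 37.5%, against the 22% over all genes. Of the log2 changes 7 were below 0 and 1 was above. Their median was -0.25, against -0.01 over all genes tested. The median size of the change, sign aside, was 0.29 for the 8 genes and 0.2 over all genes. Groups did not overlap for 4 of the 8, against the 39.9% over all genes. The count called lower was 4 without old heart 2, and 1 without old heart 1 or 3 or any one young heart. In heart tissue as a whole, fewer cells of a type and less RNA per cell cannot be told apart.

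**Figure D1:**
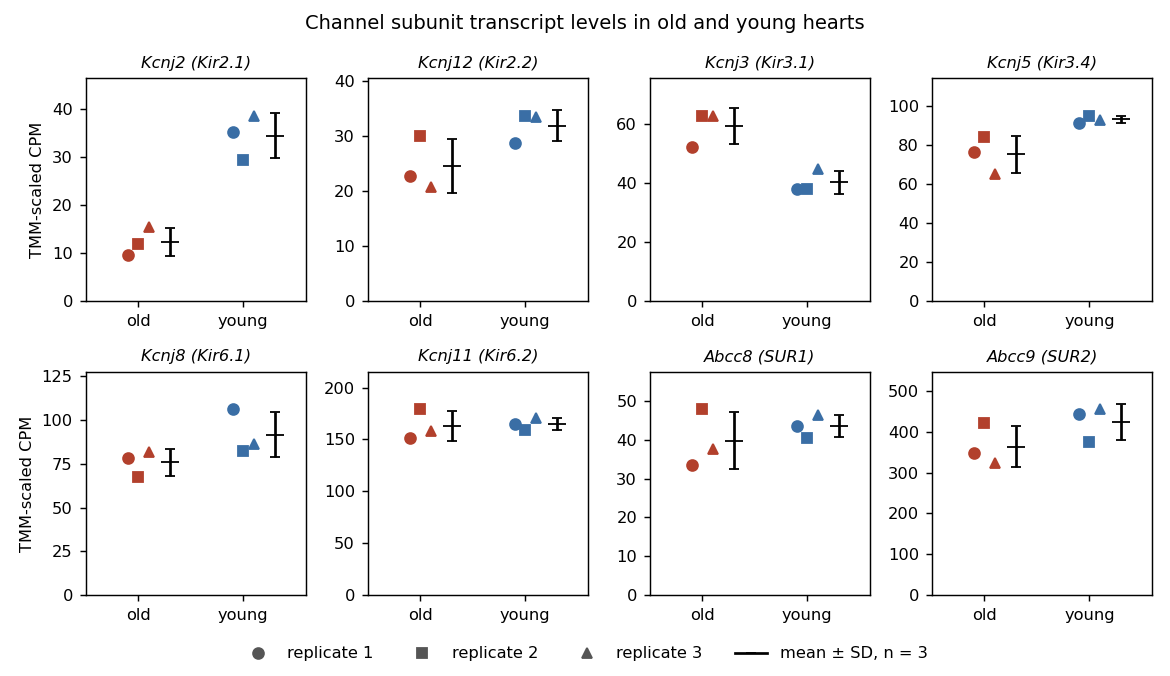
Levels of the 8 channel genes in each library, in TMM-scaled CPM, 1 panel per gene, with old mice on the left and young mice on the right of each panel. Points are single mice, lines are means and bars are SD (n = 3 each). Kcnj2 lies between 9.65 and 15.4 CPM in old hearts and between 29.3 and 38.6 CPM in young hearts, while for Kcnj11 the young range lies inside the old range.

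Kcnj2 encodes Kir2.1, the main subunit of the cardiac resting inward rectifier current in mouse ventricle. It gave 9.65, 12 and 15.4 CPM in the 3 old hearts, against 35.1, 29.3 and 38.6 CPM in the young hearts. Every old heart was below every young heart, and the highest old value lay well under the lowest young one. Means were 12.4 ± 2.9 CPM in old and 34.4 ± 4.69 CPM in young hearts (SD, n = 3 each). The log2 change was -1.48 ± 0.15 (95% interval -1.81 to -1.14, edgeR adjusted p = 7e-05), a 2.78-fold lower level in old hearts. The call was made in 6 of 6 fits that left out 1 library, with changes between -1.66 and -1.32.

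Kcnj12 encodes Kir2.2, which forms mixed tetramers with Kir2.1. It gave 22.7, 30 and 20.7 CPM in old hearts, against 28.7, 33.7 and 33.4 CPM in young hearts. The second old heart lay within the young range, so the groups overlapped. On the log2 scale the change was -0.38 ± 0.13 (95% interval -0.67 to -0.1), and the gene was not called (edgeR adjusted p = 0.054). Without the second old heart the change was -0.55 and was called (edgeR adjusted p = 0.0056), and 8 of 14 other fits also called it. The interval of Kcnj12 lies above that of Kcnj2, but the difference between these changes was not tested by itself.

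Summed as FPKM over the 4 Kir2 genes, including the sparse Kcnj4 and Kcnj14, old hearts had 5.14, 6.14 and 6 and young hearts 10.7, 9.67 and 11.9. The groups did not overlap. Kcnj2 made up 33.6%, 34.3% and 46.6% of this sum in old hearts, against 62.9%, 56.2% and 61.5% in young hearts. Means were 38.1% ± 7.3 in old and 60.2% ± 3.54 in young hearts, a difference of -22.0 percentage points (exact 2-sided permutation p = 0.1, the smallest that 3 against 3 allows, adjusted p = 0.35 over 7 subunit values). Which gene holds the larger share depends on length: the deposited FPKM uses 8638 bases for Kcnj12, whereas its longest GENCODE transcript has 2463. With GENCODE lengths the Kcnj2 share was 17.3% in old and 31.5% in young hearts, a difference of -14.2 points in the same direction.

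Of the remaining 9 genes of the Kir family, 2 passed the filter on low counts. Kcnj14, which encodes Kir2.4, gave 2.12, 1.64 and 1.99 CPM in old hearts and 1.02, 0.615 and 1.08 CPM in young hearts. Its log2 change was 1.06 ± 0.31 (edgeR adjusted p = 0.03), on 7 to 24 counts per library. The call held in 1 of the 6 fits that left out 1 library, the one without the second old heart, and was not made by DESeq2 (adjusted p = 0.13). Kcnj4, which encodes Kir2.3, averaged 0.812 ± 0.21 CPM in old and 0.875 ± 0.356 CPM in young hearts and was not called (log2 change -0.12 ± 0.41, edgeR adjusted p = 0.86). Kcnj15, a Kir4 family gene named here after its values were seen, had 3, 4 and 3 counts in old hearts and 24, 7 and 17 in young hearts. It did not pass the filter, and without the filter its log2 change was -2.1 (edgeR adjusted p = 0.013) or, by DESeq2, -2.13 (adjusted p = 0.032). Kcnj6 had no count in any library, and the other 5 genes had 5 counts or fewer in each.

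Kcnj3 encodes Kir3.1 (GIRK1), a subunit of the cardiac acetylcholine-gated channel. It was the 1 gene of the 8 with a higher level, at 52.2, 62.7 and 62.8 CPM in old hearts, against 38.1, 38 and 44.7 CPM in young hearts. Every old heart was above every young heart. Its fitted log2 change was 0.56 ± 0.1 (95% interval 0.34 to 0.78, edgeR adjusted p = 0.0027), a 1.47-fold higher level. The call was made in 6 of 6 fits that left out 1 library and in 13 of 14 other fits. The exception was log2(FPKM + 1) without a filter (limma adjusted p = 0.05).

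Kcnj5 encodes Kir3.4 (GIRK4), the subunit that carries GIRK1 to the surface of heart cells. Its levels were 76.4, 83.8 and 65 CPM in old hearts, against 91.1, 95 and 92.9 CPM in young hearts. Every old heart was below the narrow young range. The fit gave a log2 change of -0.31 ± 0.1 (95% interval -0.52 to -0.1, edgeR adjusted p = 0.04), a 1.24-fold lower level. The call was lost without old heart 1 (edgeR adjusted p = 0.094), old heart 3 (0.1), or young heart 1 (0.099), 2 (0.092) or 3 (0.11), and was kept without old heart 2. It was also lost when a trend with gene length was removed from each library (edgeR adjusted p = 0.09).

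The GIRK pair thus differed in direction, with all values of both genes apart between the groups. Kcnj3 made up 23.1%, 24.7% and 29.8% of the summed GIRK FPKM in old hearts, against 15.5%, 14.9% and 17.5% in young hearts. Means were 25.9% ± 3.5 in old and 16.0% ± 1.32 in young hearts, a difference of 9.91 percentage points (exact 2-sided permutation p = 0.1, the smallest possible, adjusted p = 0.35). As deposited FPKM, which carries no TMM factors, the sum was 20 ± 1.54 in old and 23.2 ± 0.441 in young hearts, without overlap. In CPM, Kcnj3 averaged 59.3 in old and 40.3 in young hearts, and Kcnj5 75.1 and 93. The CPM of both genes together overlapped between the groups, so a lower sum in old hearts depends on the measure. The difference in share was 14.0 points from CPM and 13.6 points with GENCODE lengths. With these lengths the shares were 41.6% in old and 28.0% in young hearts.

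GIRK is best known in the atria. The atrial markers Myl7, Sln and Bmp10, named after their values were seen, were near 0 in both groups. Myl7, the atrial regulatory light chain, gave 0.905 ± 0.59 CPM in old and 0.739 ± 0.346 CPM in young hearts. Sln had no count in old hearts and 0, 4 and 1 counts in young hearts, and Bmp10 had 1 count in all 6 libraries together. Other genes of that list were expressed. Stard10 averaged 48.6 CPM in old and 35.1 CPM in young hearts, Gpr22 36.9 and 27.6 CPM, and Myl4 3.92 and 2.67 CPM. Of the 8 atrial markers 6 were tested, and 66.7% of these were called, against 22% over all genes. The summed level of the list was 143 to 207 CPM in old and 413 to 476 CPM in young hearts. Nppa, the atrial natriuretic peptide gene, which makes up most of that sum in young hearts, fell (log2 change -2.32 ± 0.23, edgeR adjusted p = 4.5e-05), while Stard10, Dkk3 and Gpr22 were called higher. Gpr22 lost its call without old heart 1 or young heart 1 or 3, and the count called higher was 1 without young heart 3. The ventricular light chain Myl2 gave 15412, 12688 and 15246 CPM in old hearts and 15489, 17431 and 13599 CPM in young hearts. Their part in the values of Kcnj3 and Kcnj5 was not tested.

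The list of the receptor pathway to GIRK holds genes that open the channel and genes that end its opening. Of its 28 genes 27 were tested, with 4 called higher, 4 called lower and 19 not called. The share called was 29.6%, near the 22% over all genes, and the median log2 change was 0.11, against -0.01 over all genes. Gnb3, a G protein beta subunit, gave 11.1, 14.9 and 9.62 CPM in old hearts, against 25.2, 26.2 and 26 CPM in young hearts (log2 change -1.12 ± 0.14, edgeR adjusted p = 0.00021). Gnb4, another beta subunit, also fell (-0.66 ± 0.11, edgeR adjusted p = 0.0014). Gnai3, an inhibitory alpha subunit, rose (0.5 ± 0.12, edgeR adjusted p = 0.01), as did Gnb1, a further beta subunit (0.31 ± 0.08, edgeR adjusted p = 0.021). The calls of Gnb3 and Gnb4 were made without each library in turn. That of Gnai3 was lost without young heart 3, and that of Gnb1 without old heart 1 or young heart 1 or 3.

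Chrm2, Adora1, Rgs4 and Rgs6 are named for their place in the pathway, after their values were seen. Chrm2, the cardiac muscarinic receptor, gave 73.1, 99 and 76 CPM in old hearts and 99.1, 104 and 113 CPM in young hearts (log2 change -0.35 ± 0.11, edgeR adjusted p = 0.046). That call was kept only without old heart 2 among the fits that left out 1 library. Adora1, the adenosine A1 receptor, was not called (-0.05 ± 0.11, 95% interval -0.29 to 0.2, edgeR adjusted p = 0.8). Rgs4 and Rgs6, which speed GIRK closing by switching off the alpha subunit, were called higher (0.3 ± 0.09 and 0.55 ± 0.15, edgeR adjusted p = 0.035 and 0.023). Rgs4 lost its call without old heart 1 or 3 or young heart 1 or 2, and Rgs6 without old heart 1 or 2 or young heart 1 or 2. The count of list genes called higher fell to 2 without old heart 1, 1 without young heart 1, and 2 without young heart 2 or 3. The count called lower fell to 2 without old heart 1 or young heart 1 or 2.

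Kcnj11 encodes Kir6.2, the KATP pore of ventricular muscle cells, and did not differ detectably. It gave 151, 179 and 158 CPM in old hearts, against 165, 159 and 171 CPM in young hearts. The groups overlapped over nearly their whole range. The log2 change was -0.02 ± 0.09 (95% interval -0.21 to 0.17, edgeR adjusted p = 0.9), an interval that covers ratios of old to young from 0.864 to 1.13. None of the 6 fits without a library or the 14 other fits called it.

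Kcnj8 encodes Kir6.1, the KATP pore of vascular smooth muscle and pericytes. Its levels were 78.3, 67.3 and 81.9 CPM in old hearts, against 106, 82.1 and 86.5 CPM in young hearts. The highest old value lay just under the lowest young value, so the groups did not overlap. On the log2 scale the change was -0.27 ± 0.11 (95% interval -0.51 to -0.03), and the gene was not called (edgeR adjusted p = 0.1). Of the other fits only limma-voom with quality weights called it (adjusted p = 0.033).

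Abcc9 encodes SUR2, the sulfonylurea receptor of ventricular muscle (SUR2A) and of vessels (SUR2B), which gene counts do not separate. It gave 349, 421 and 323 CPM in old hearts, against 444, 374 and 455 CPM in young hearts. Old heart 2 lay within the young range, and the groups overlapped. Its fitted log2 change was -0.22 ± 0.11 (95% interval -0.47 to 0.02, edgeR adjusted p = 0.18). It was called without old heart 2 (edgeR adjusted p = 0.048) and in none of the other fits.

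Abcc8 encodes SUR1, the receptor of pancreatic beta cells, which in mice also forms atrial KATP channels. It gave 33.6, 47.8 and 37.7 CPM in old hearts, against 43.6, 40.5 and 46.4 CPM in young hearts. The groups overlapped, with both the lowest and the highest value in old hearts. The fit gave a log2 change of -0.13 ± 0.12 (95% interval -0.39 to 0.13, edgeR adjusted p = 0.45), and none of the 6 fits without a library or the 14 other fits called it. A long noncoding gene overlaps Abcc8 and another overlaps Abcc9 in RefSeq, and whether counting used strand is not given in the sources used here. The summed level of the 7 listed islet markers was at most 1.15 CPM in any library, and 4 of them had no count.

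The 5 genes Kcnj12, Kcnj5, Kcnj11, Abcc8 and Abcc9 each had their highest old value in the second old heart. Kcnj8 had its lowest old value there, and Kcnj2 and Kcnj3 stood in between.

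**Figure D2:**
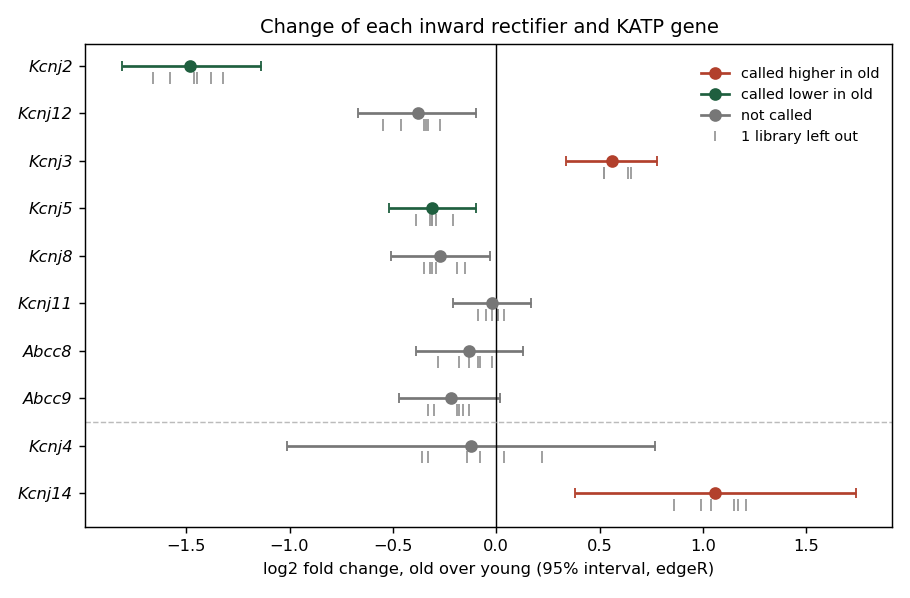
Log2 change of old over young for each of the 8 channel genes from the edgeR fit, as points with 95% intervals on a log2 axis, with 2 further Kir genes below the dashed line. Ticks are the changes with 1 library left out. Kcnj2 lies farthest from 0 at -1.48, Kcnj3 is the 1 gene of the 8 above 0, at 0.56, and the interval of Kcnj11 runs from -0.21 to 0.17.

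The make-up of the KATP channel genes overlapped between old and young hearts in each of the 5 values compared, and each difference was smaller than the SD among old hearts, though 3 were larger than the SD among young hearts. Kcnj8 made up 38.6% ± 4.33 of the summed Kir6 FPKM in old and 42.7% ± 3.23 in young hearts (exact 2-sided permutation p = 0.6, adjusted p = 0.7, n = 3 each). Abcc8 made up 14.9% ± 1.32 of the summed SUR FPKM in old and 14.2% ± 0.604 in young hearts (exact permutation p = 0.5, adjusted p = 0.7). The log2 ratio of SUR to Kir6 FPKM was -0.55 ± 0.186 in old and -0.45 ± 0.0951 in young hearts (exact permutation p = 0.4, adjusted p = 0.7). Abcc9 over Kcnj8, which are neighbours on chromosome 6, gave log2 ratios of 0.6 in old and 0.56 in young hearts (exact permutation p = 0.9, adjusted p = 0.9). Abcc8 over Kcnj11, neighbours on chromosome 7, gave -2.59 in old and -2.47 in young hearts (exact permutation p = 0.3, adjusted p = 0.7). With 3 hearts per group these values allow no p below 0.1, so none of them could reach 0.05.

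**Figure D3:**
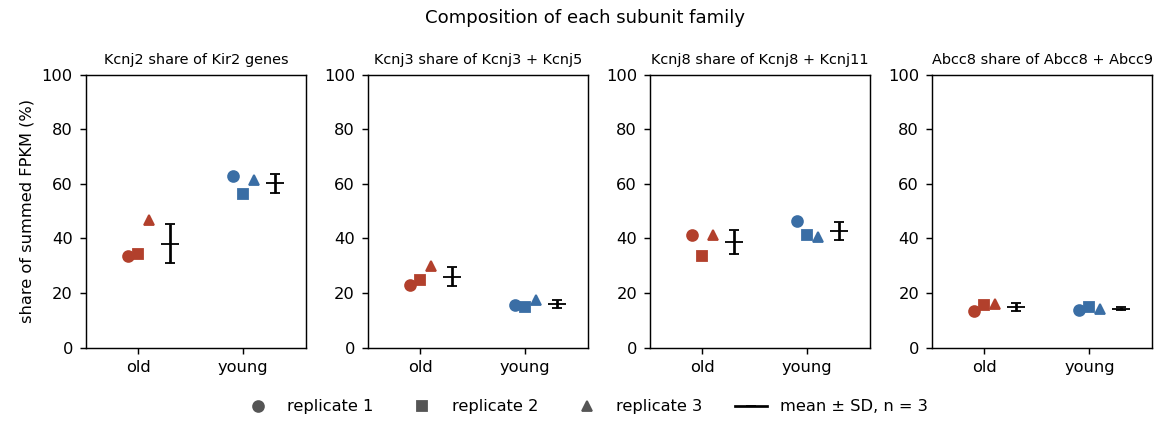
Share of each subunit in the summed FPKM of its family, in percent, per heart, with old hearts left of young hearts. Points are single mice, and lines with bars are means and SD (n = 3 each). The Kcnj2 share of Kir2 averages 38.1% in old and 60.2% in young hearts, the Kcnj3 share of GIRK averages 25.9% in old and 16.0% in young hearts, and the Kcnj8 and Abcc8 shares overlap between the groups.

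Kcnj8 and Abcc9 are also expressed in vessel cells, whose markers were called in both directions. The summed level of 11 pericyte markers was 1227 to 1268 CPM in old and 1177 to 1345 CPM in young hearts. Of these, 1 was called higher and 3 lower, among them Pdgfrb (log2 change -0.69 ± 0.11, edgeR adjusted p = 0.001), while Rgs5 was not called (0.09 ± 0.08, edgeR adjusted p = 0.47). Without old heart 1 or young heart 3 none was called higher. The summed level of 8 smooth muscle markers was 538 to 720 CPM in old and 456 to 502 CPM in young hearts, with 5 called higher and 0 lower by edgeR (1 lower at an unadjusted p under 0.05, 0 by DESeq2 and by limma-voom). The count of 5 was 3 without old heart 2 or 3 and 2 without any one young heart, and 1 was called lower without old heart 3. The summed level of 10 endothelial markers was 1913 to 2374 CPM in old and 2281 to 2501 CPM in young hearts, with 1 called higher and 2 lower, Kdr and Tek. Kdr kept its call only without old heart 3, where 2 were called higher and 4 lower, and 1 was called lower without old heart 1 or young heart 1 or 3. By share, 36.4% of the pericyte, 62.5% of the smooth muscle and 30% of the endothelial markers were called, against 22% over all genes. The part of these cell types in the values of Kcnj8 and Abcc9 was not tested.

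The markers of other cells are given as counts and summed levels. Shares called were 37.5% of the ventricular, 28.6% of the conduction and 37.5% of the fibroblast markers tested. They were 50% of the macrophage, 25% of the neuron and Schwann cell and 20% of the red cell markers, against 22% over all genes. Ventricular muscle had 1 of 8 called higher and 2 lower, at 54493 to 56227 CPM in old and 51650 to 55605 CPM in young hearts. The conduction list had 2 of 7 tested called higher, Tbx3 and Cacna1g, at 212 to 220 CPM in old and 173 to 212 CPM in young hearts. Fibroblasts had 1 of 8 called higher and 2 lower, at 1738 to 2150 CPM in old and 1822 to 1932 CPM in young hearts. Macrophages had 3 of 8 called higher and 1 lower, at 923 to 1179 CPM in old and 843 to 936 CPM in young hearts. Neurons and Schwann cells had 1 of 4 tested called higher, at 15.6 to 20.4 CPM in old and 12.7 to 15.9 CPM in young hearts. Red cells had 1 of 5 called lower, at 3191 to 6797 CPM in old and 2160 to 16066 CPM in young hearts. Leaving out 1 library moved 1 or more of these counts by over 1.5 times for each of the 6 libraries, and the part of these cells in the channel values was not tested.

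KATP channels answer to the ATP and creatine phosphate supply. The list of their metabolic partners also holds AMP-activated kinase, trafficking and NAD-consuming genes, and had calls in both directions. Those called higher were creatine kinase and glycolysis genes, and those called lower were mostly of the other kinds. Of 24 tested genes 4 were called higher and 5 lower, 37.5% against the 22% over all genes, with a median log2 change of 0.06. Ckmt2, the mitochondrial creatine kinase of muscle, gave 2666, 2902 and 2517 CPM in old hearts, against 1795, 1841 and 1906 CPM in young hearts (0.55 ± 0.08, edgeR adjusted p = 0.00092). Ehd2, a membrane-trafficking ATPase of caveolae, fell (-0.57 ± 0.1, edgeR adjusted p = 0.0022), as did Cd38, an NAD-consuming enzyme (-0.54 ± 0.1, edgeR adjusted p = 0.0037), and Prkaa1, a catalytic subunit of AMP-activated kinase (-0.48 ± 0.1, edgeR adjusted p = 0.007). These 4 calls were made without each library in turn. The count called higher was 2 without old heart 1 or 2 or young heart 1 or 2, and 1 without young heart 3. The count called lower was 3 without old heart 1 or young heart 1 or 3.

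Kinases and cyclases that act on Kir channels held the largest single change among the pathway genes named. Of 14 tested genes 2 were called higher and 3 lower, 35.7% against the 22% over all genes, with a median log2 change of -0.03. Sgk1, a kinase that raises surface levels of several channels in expression systems, gave 215, 240 and 245 CPM in old hearts, against 58.9, 95.4 and 106 CPM in young hearts (1.43 ± 0.17, edgeR adjusted p = 0.00017). Adcy6, a main cardiac adenylyl cyclase, gave 164, 205 and 161 CPM in old hearts, against 285, 268 and 298 CPM in young hearts (-0.68 ± 0.1, edgeR adjusted p = 0.00083). Prkcz, an atypical protein kinase C, rose (0.86 ± 0.19, edgeR adjusted p = 0.0088). Prkca, a conventional one, fell (-0.38 ± 0.09, edgeR adjusted p = 0.011) but lost its call without young heart 3, where the count called lower was 1.

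Genes that anchor or traffic Kir channels, or make the membrane lipid PIP2 that all Kir channels need, were mostly not called. The median log2 change was -0.09. Of 24 tested genes 0 were called higher by edgeR (1 at an unadjusted p under 0.05, 0 by DESeq2 and by limma-voom). By edgeR 1 was called lower (4 at an unadjusted p under 0.05). That is 4.17% called, against the 22% over all genes. The gene called was Akap5, an anchor for protein kinase A (-0.91 ± 0.28, edgeR adjusted p = 0.04). Its call was kept only without old heart 3. The count called lower was 0 without old heart 1 or 2 or young heart 1 or 3, and 2 without old heart 3. It was 3 under upper-quartile scaling and 5 under scaling by library size alone.

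Of 17 tested cardiac transcription factors 5 were called lower and 0 higher by edgeR (1 higher at an unadjusted p under 0.05, 0 by DESeq2 and by limma-voom), with a median log2 change of -0.15. The share called was 29.4%, against 10.6% called lower and 11.4% called higher over all genes. Irx3 and Irx5, Iroquois factors that pattern conduction and repolarization in the mouse ventricle, fell (-0.71 ± 0.08 and -1.09 ± 0.17, edgeR adjusted p = 0.00011 and 0.0011) and were called without each library in turn. Irx5 gave 6.2, 5.44 and 3.81 CPM in old hearts, against 11.6, 10.9 and 10.4 CPM in young hearts. Irx4, a ventricular factor, also fell (-0.37 ± 0.09, edgeR adjusted p = 0.015), but not without old heart 1 or young heart 3. Tbx5, a factor of the conduction system, fell (-0.42 ± 0.12, edgeR adjusted p = 0.025), but not without old heart 1 or 3 or young heart 1 or 3. The count called lower was 2 without old heart 1 or young heart 3, and 3 without young heart 1.

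**Figure D4:**
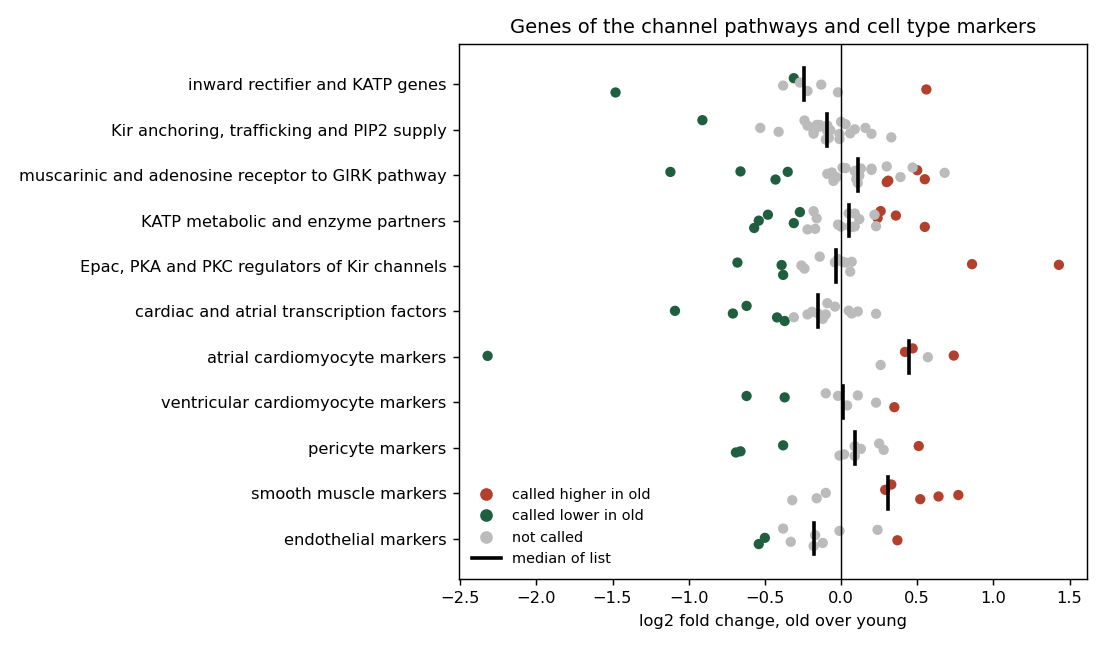
Log2 change of old over young for every tested gene of the channel list, of 5 related lists and of 5 marker lists, 1 row per list, with called genes coloured by direction and the list's median as a line. Calls lie on both sides of 0 in the muscarinic, metabolic and kinase lists. They lie only below 0 in the anchoring list, with 1 call, and in the transcription factor list, whose median is -0.15. Among the smooth muscle markers they lie only above 0.

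Compared per length, the KATP subunit genes Kcnj11, Abcc9 and Kcnj8 had the 3 highest levels of the 8 in both groups, while the fourth, Abcc8, ranked below Kcnj5. In old hearts the order by FPKM was Kcnj11 at 46 ± 3.48, Abcc9 at 43.8 ± 5.33, Kcnj8 at 29 ± 3.37, Kcnj5 at 14.9 ± 1.64, Abcc8 at 7.7 ± 1.31, Kcnj3 at 5.16 ± 0.529, Kcnj12 at 2.75 ± 0.5 and Kcnj2 at 2.21 ± 0.542 (SD, n = 3). In young hearts it was Abcc9 at 54.2 ± 6.4, Kcnj11 at 49.3 ± 2.43, Kcnj8 at 37 ± 5.72, Kcnj5 at 19.5 ± 0.104, Abcc8 at 8.93 ± 0.715, Kcnj2 at 6.49 ± 0.967, Kcnj12 at 3.8 ± 0.296 and Kcnj3 at 3.7 ± 0.379. Ranges of neighbours overlapped for the first and second gene in both groups, for Kcnj12 and Kcnj2 in old hearts, and for Kcnj12 and Kcnj3 in young hearts. The other neighbours did not overlap. The deposited FPKM uses 11170 bases for Kcnj3, 2.14 times its longest GENCODE transcript, and 3.51 times for Kcnj12. With GENCODE lengths Kcnj2 was the lowest in both groups, at 2.21 in old and 6.49 in young hearts, and the order of the lower genes changed, while the first 4 genes kept their places.

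The promoters of Kcnj2 and Kcnj3 are shown because these 2 genes had the largest changes of the 8, in opposite directions. Each window holds 300 bases, from 250 before to 50 after the gene's start, from RefSeq on GRCm38.p6. Of the 8 genes, 6 matched the promoter table: Kcnj2, Kcnj3, Kcnj5, Kcnj8, Kcnj12 and Abcc9. Searched on both strands were the E-box CACGTG, the CCAAT box CCAAT, the TATA box TATAAA and the GC box GGGCGG, and capitals mark the hits. No hits overlapped in the windows shown.
Kcnj2, chr11:111065914-111066213, plus strand: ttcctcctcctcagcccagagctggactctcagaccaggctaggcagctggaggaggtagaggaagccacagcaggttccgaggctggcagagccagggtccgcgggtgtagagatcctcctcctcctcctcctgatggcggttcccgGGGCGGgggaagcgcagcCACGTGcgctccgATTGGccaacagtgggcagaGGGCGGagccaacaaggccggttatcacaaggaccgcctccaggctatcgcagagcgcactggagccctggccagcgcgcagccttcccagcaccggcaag
Kcnj3, chr2:55435720-55436019, plus strand: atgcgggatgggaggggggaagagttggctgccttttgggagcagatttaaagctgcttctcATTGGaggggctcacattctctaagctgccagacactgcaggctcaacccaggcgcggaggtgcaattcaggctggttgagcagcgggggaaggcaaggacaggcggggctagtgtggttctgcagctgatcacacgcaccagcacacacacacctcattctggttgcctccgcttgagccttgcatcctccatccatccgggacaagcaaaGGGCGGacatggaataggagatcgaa
The Kcnj2 window holds an E-box at position -84, a reverse CCAAT box at -71 and GC boxes at -102 and -51, counted from the start. An E-box of this spelling stood in 7.15% of all 32851 promoters and in 1 of the 6 channel promoters. The Kcnj3 window holds a reverse CCAAT box at -188 and a GC box at position 25, counted from 1 at the start. CCAAT stood in 37.4% of all promoters and in 2 of the 6, and the GC box in 35.7% and in 4 of the 6. TATAAA stood in 13.6% of all promoters and in 0 of the 6. These matches describe letters in the windows only.

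The genes with profiles most like the called channel genes were taken over the 6 hearts among 11773 genes, by the root mean square difference of centred log2 CPM. For Kcnj2 they were Rassf9 at 0.116, Zfp608 at 0.145 and Tril at 0.15. Rassf9 gave 7.97, 9.59 and 14.7 CPM in old hearts, against 28.3, 23.8 and 28 CPM in young hearts. For Kcnj3 they were Rab3a at 0.054, a GTPase of vesicle release, Slc25a35 at 0.056 and Glrx at 0.061, a glutaredoxin. For Kcnj5 they were Myzap at 0.03, a protein of the intercalated disc, Dync1li1 at 0.032 and Rnaset2b at 0.04. Myzap gave 391, 457 and 353 CPM in old hearts, against 485, 510 and 500 CPM in young hearts. Slc25a35 and Dync1li1 were themselves not called (edgeR adjusted p = 0.057 and 0.091). These genes were picked for their likeness, so a shared pattern over the hearts is no separate result.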

How the data were processed

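RNA of 3 old and 3 young mouse hearts was extracted with a mirVana kit and made into TruSeq Stranded mRNA libraries, per the labels' protocols. The authors deposited whole-number gene counts and FPKM values. Tools listed in the submitters' processing notes are HISAT2 and Bowtie2, HTSeq, StringTie, Cufflinks, DESeq and Trimmomatic, beside the build GRCm39; no source used here gives their versions, their roles or the strand setting. Each of the 12 files of single samples matched its column in the joint tables, and counts divided by FPKM gave 1 whole-number length per gene.

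The test on counts was that of edgeR 4.0.16 under R 4.3.3 (quasi-likelihood F test, filterByExpr, TMM, no covariate, 12893 of 16964 genes with counts). Replicate numbers were taken as names, because deviations of same-numbered hearts correlated at 0.0782, 0.0782 and 0.00675. Depth is 11295280 to 12514005 counts per library, so that 1 count is worth about 0.084 CPM. Subunit shares used the deposited FPKM and an exact 2-sided permutation test. Alternatives were other scalings, filters, a replicate block, omission of each library in turn or of the 10 most abundant genes, limma 3.58.1 (voom, and log2 FPKM with pseudocounts of 1 and 0.1), DESeq2 1.42.0 and other thresholds, with removal of gene length trends (loess, span 0.5) and GENCODE lengths added after seeing the data. On simulated counts with known changes, the share of unchanged genes among the calls of this edgeR test was above the 0.05 threshold. The simulation changed a much smaller share of genes than was called here, in a single random draw. It therefore cannot give that share for these data.

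The channel genes, pathway lists, marker lists and alternatives were chosen with earlier results of these data known. Named are all 8 channel genes, other Kir genes past the filter, up to 4 called genes per pathway list by smallest p, up to 3 most expressed and 2 called genes per marker list, and the 3 closest profiles of each called channel gene; Chrm2, Adora1, Rgs4, Rgs6, Kcnj15 and the marker genes Myl7, Sln, Bmp10 and Dkk3 were added after their values were seen. The islet marker Pdx1 was not found by that name among the genes with deposited counts, so it could not be analysed.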

Additional observations from a re-analysis of the deposited data

How the results depend on the processing

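The call of Kcnj2 was made in all 6 fits that left out 1 library and in all 14 other fits, with log2 changes from -1.66 to -1.23 and adjusted p from 2.5e-15 to 0.0065. The count of channel genes called higher was 1 by edgeR and 0 on log2(FPKM + 1) without a filter. The count called lower was 2 by edgeR, 1 with gene length trends removed (chosen after seeing the data), 4 by limma-voom with quality weights, 1 at an adjusted p under 0.01, 3 under the replicate block, and 1 to 4 with 1 library left out. Kcnj12 was called by edgeR scaled by library size (adjusted p = 0.019) or upper quartile (0.029), without a filter (0.04) and with the replicate block (0.028), and by limma-voom (0.047), voom with quality weights (0.048) and both filtered FPKM fits (0.04). The cause of these shifts was not tested.

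Over all genes 1467 were called higher and 1368 lower. The count higher was 897 and 907 on log2 FPKM with pseudocounts of 0.1 and 1, 810 without a filter, 724 at an adjusted p under 0.01, and 850 to 1597 with 1 library left out, lowest without young heart 1 (850) or 3 (870). The count lower was 2122 with scaling by library size alone, 531 at an adjusted p under 0.01, and 682 to 1444 with 1 library left out, at 818 without old heart 1, 707 without young heart 1 and 682 without young heart 3. The replicate block gave 1417 higher and 1317 lower; same-numbered hearts share a number only.

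In the 6 related lists together 11 of 108 tested genes were called higher and 18 lower, against 11.4% and 10.6% over all genes. The count higher was 7 with scaling by library size alone, 4 on each of the log2 FPKM settings, 3 at an adjusted p under 0.01, and 5 to 11 with 1 library left out. The count lower was 8 at an adjusted p under 0.01 and 9 to 17 with 1 library left out. The replicate block gave 10 higher and 18 lower. Over the 64 named genes outside the channel list, 1217 values under alternatives kept their call or stayed uncalled, 138 lost a call and 19 gained one. Of those called in either fit 0 reversed, and direction was not compared where neither fit called the gene.

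The difference in the Kcnj3 share of GIRK was 9.91 percentage points from FPKM, 14.0 from CPM and 13.6 with GENCODE lengths, and 7.95 to 11.3 with 1 library left out. That in the Kcnj2 share of Kir2 was -22.0, -14.2 with GENCODE lengths, and -26.2 to -19.7 with 1 library left out. With 1 library left out, the Kcnj8 share differed by -5.3 to -1.55 points, the Abcc8 share by 0.24 to 1.46, and the log2 ratios by -0.19 to -0.01 for SUR over Kir6, -0.15 to 0.18 for Abcc9 over Kcnj8 and -0.19 to -0.06 for Abcc8 over Kcnj11. Paired over the replicate numbers, an exact sign-flip test cannot give a p below 0.25.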
